A study of Mus musculus with 9 samples.

Results

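Mammalian cells carry enzymes that remove, edit or degrade their own DNA and RNA, or the messenger made when these are sensed, and 8 of them were followed here at the mRNA level in cell lines of a Huntington disease model. They are Trex1, Rnaseh2a, Rnaseh2b, Rnaseh2c, Samhd1, Adar, Enpp1 and Dnase2a. The genes were chosen by these symbols from the deposited table of gene counts, in which all 8 are listed among 36410 genes. A filter on low counts (edgeR's filterByExpr, minimum count 10) left 13508 genes for testing, and all 8 were among them. The lowest count of any of the 8 in any library was 61, for Trex1.

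The libraries come from 3 immortalized striatal cell lines made from mouse embryos and obtained from the Coriell repository, all of strain C57/BL6 per the labels. The labels give all 3 lines a knock-in of Htt exon 1, while the paper has the control line from WT embryos. In the control line (STHdhQ7/Q7) both alleles have 7 glutamine codons, which the labels write as Glu. The HD-het line (STHdhQ7/Q111) pairs an allele of 7 with an allele of 111, and in the HD-homo line (STHdhQ111/Q111) both alleles have 111. Each genotype is a single line, so genotype and line cannot be told apart. Each line has 3 directional, poly(A)-selected libraries. The labels do not say whether these come from separate cultures, so the p-values measure the spread between libraries, which may be technical. Library totals ranged from 29507665 to 41197931 counts. A count of 3 corresponded to 0.071 to 0.101 CPM (counts per megaread of the library total as scaled by edgeR's TMM method), which covers counting error only. Levels are given as CPM normalized by edgeR's TMM method, as mean ± SD of 3 libraries.

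Self DNA and RNA differ little in chemistry from those of a virus, and cells tell them apart mainly by place, amount and modification. Nucleases clear DNA from the cytosol and the lysosome, RNase H2 removes ribonucleotides from genomic DNA and cuts RNA paired with DNA, a deoxynucleotide hydrolase limits DNA synthesis, and an editing enzyme loosens double-stranded RNA. In people, inherited loss of several of these enzymes causes Aicardi-Goutières syndrome, a brain disease with a strong interferon signature.

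The label striatal was checked against 10 markers of striatal projection neurons. Drd1 had no counts in any library, Drd2 had at most 1 and Gad1 at most 3. Penk was the most abundant of the 10 in the control and HD-homo lines, with 33, 46 and 43 counts in control, 22, 18 and 8 in HD-het and 71, 68 and 116 in HD-homo libraries. In the HD-het line it was Bcl11b, with 17, 14 and 26 counts. The summed level of the 10 markers was 2.64, 2.65 and 2.23 CPM in control, 2.00, 1.80 and 2.13 CPM in HD-het and 3.10, 3.08 and 4.62 CPM in HD-homo libraries. The defining markers of mature striatal neurons were therefore at or near 0. Among 6 markers of neurons and neural progenitors, Nes was the most abundant in the control and HD-het lines and Map2 in the HD-homo line, and Rbfox3 and Dcx had at most 3 counts in each library. The summed level of these 6 was 776, 783 and 720.3 CPM in control, 1055, 1040 and 1006 CPM in HD-het and 129, 117 and 148 CPM in HD-homo libraries. The HD-homo line thus stood apart from both others in its progenitor markers, and the part of this difference in the results on the 8 enzymes was not tested.

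The 3 lines were compared in pairs with edgeR's quasi-likelihood test, two-sided, in 1 fit of 13508 genes and 9 libraries, with p adjusted over all genes by Benjamini-Hochberg and a threshold of 0.05. Log2 fold changes from this fit are called log2 differences. The 2 comparisons against the control line share the control libraries. Between the HD-homo and control lines 7 of the 8 enzymes passed, beside 58.6% of all genes tested. Of these, 6 were higher in the HD-homo line, beside 29.6% of all genes, and 1 was lower, beside 28.9%. The libraries of these lines did not overlap for 7 of the 8 enzymes, beside 65.3% of all genes. Between the HD-het and control lines 6 of the 8 passed, beside 65.1% of all genes. Here 2 were higher, beside 33.8%, and 4 were lower, beside 31.4%. The libraries did not overlap for 7 of the 8, beside 74% of all genes. Between the HD-homo and HD-het lines 4 of the 8 passed, beside 71.6% of all genes. By edgeR, 4 were higher in the HD-homo line and 0 were lower, beside 36% and 35.6% of all genes. At an unadjusted p under 0.05, and by DESeq2, the number that passed was also 4. Libraries of these 2 lines did not overlap for 6 of the 8 enzymes, beside 72.8% of all genes. Most genes tested differed between any 2 of the lines, so the number of enzymes that passed says little by itself.

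**Figure D1:**
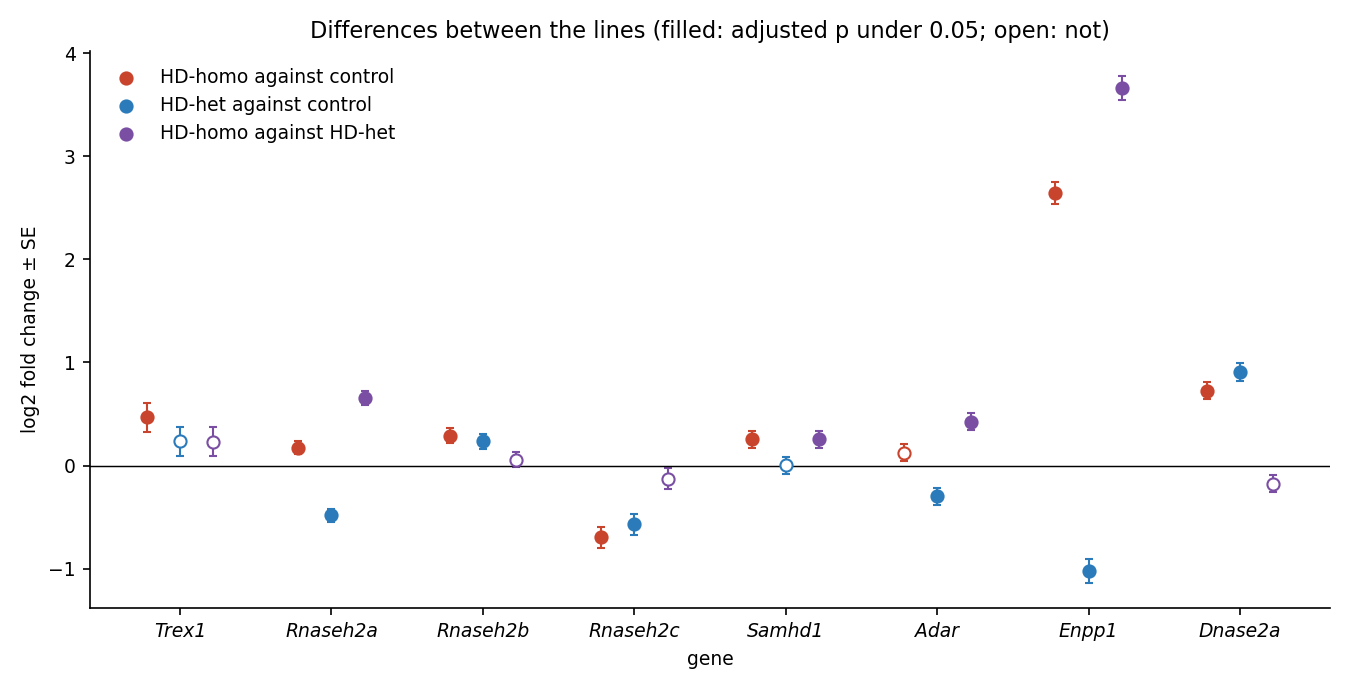
Log2 fold change ± standard error of each of the 8 enzymes (x axis) in the 3 comparisons between lines (colours), from the fit to all 9 libraries. Filled points passed an adjusted p of 0.05 and open points did not. Enpp1 lies at 2.64, -1.02 and 3.66, and the other enzymes lie between -0.70 and 0.90.

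The median log2 difference of the 8 enzymes was 0.27 between the HD-homo and control lines, where that of all genes tested was 0.01. Between the HD-het and control lines it was -0.15, and 0.03 for all genes. The median size of the difference, regardless of sign, was 0.38 and 0.39 for the enzymes in these comparisons, and 0.32 and 0.40 for all genes. Between the HD-homo and HD-het lines this median size was 0.24 for the enzymes and 0.46 for all genes.

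Trex1 and Dnase2a encode the nucleases that degrade self DNA, in the cytosol and in the lysosome. The level of Trex1 (ENSMUSG00000049734.9, chr9:109057933-109059734 of GRCm38, minus strand), in normalized CPM, was 2.77, 2.65 and 2.06 in control, 3.07, 2.90 and 2.85 in HD-het and 3.50, 3.55 and 3.31 in HD-homo libraries. The HD-het libraries lay between the other lines, and neither pair of neighbouring lines overlapped. Trex1 mRNA was 1.39-fold higher in the HD-homo than the control line, a log2 difference of 0.47 (SE 0.141, adjusted p = 0.0144, edgeR quasi-likelihood test, Benjamini-Hochberg). Control replicate 3 had the lowest value, and without it the log2 difference was 0.35 and missed the threshold (adjusted p = 0.0571, edgeR quasi-likelihood test, Benjamini-Hochberg; range over 15 alternatives 0.00928 to 0.0605). The HD-het level did not pass against the control line, with a log2 difference of 0.23 (SE 0.143, adjusted p = 0.17, edgeR quasi-likelihood test, Benjamini-Hochberg), and without control replicate 3 this was 0.12 (adjusted p = 0.494). Nor did HD-homo pass against the HD-het line, also at a log2 difference of 0.23 (SE 0.138, adjusted p = 0.151, edgeR quasi-likelihood test, Benjamini-Hochberg). In bulk libraries, fewer cells with an mRNA and less of it in each cell cannot be told apart, here and for each gene that follows.

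All 1147 exonic bases of Trex1 lie within exons of Atrip on the same strand, and 95.8% of the 50-base words of Trex1 transcripts occur in another gene. How reads on both genes were assigned was not given. Atrip mRNA differed from the control line by a log2 difference of 0.04 in the HD-homo line (adjusted p = 0.716, edgeR quasi-likelihood test, Benjamini-Hochberg). In the HD-het line it was lower than in the control line, at -0.30 (adjusted p = 0.00944, edgeR quasi-likelihood test, Benjamini-Hochberg). The HD-homo level of Atrip was above that of the HD-het line, at 0.34 (adjusted p = 0.00392, edgeR quasi-likelihood test, Benjamini-Hochberg). The log2 difference of Trex1 was 0.47 in HD-homo against control, 0.23 in HD-het against control and 0.23 in HD-homo against HD-het. The part of reads shared with Atrip in these was not tested.

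Dnase2a (ENSMUSG00000003812.13, chr8:84908560-84922915 of GRCm38, plus strand) encodes DNase II, the lysosomal endonuclease that digests DNA from engulfed cells and from the nucleus. Its normalized CPM was 6.41, 6.81 and 7.13 in control, 13.0, 12.9 and 12.1 in HD-het and 11.7, 11.2 and 10.8 in HD-homo libraries. Every HD library was above every control library, and the HD-het libraries were above those of the HD-homo line. Dnase2a mRNA was 1.87-fold higher in the HD-het than in the control line, a log2 difference of 0.90 (SE 0.0862, adjusted p = 4.3e-06, edgeR quasi-likelihood test, Benjamini-Hochberg). In the HD-homo line it was 1.66-fold higher, a log2 difference of 0.73 (SE 0.0864, adjusted p = 2.6e-05, edgeR quasi-likelihood test, Benjamini-Hochberg). Both differences passed in all 15 alternative analyses, between 0.86 and 0.97 for HD-het and between 0.69 and 0.76 for the HD-homo line. The difference between the HD lines, -0.18 for the HD-homo against the HD-het line, did not pass (SE 0.0828, adjusted p = 0.0748, edgeR quasi-likelihood test, Benjamini-Hochberg). Of the 8 enzymes, Dnase2a was the 1 with its highest mean in the HD-het line. Its exons overlap those of Mast1 on the opposite strand over 29.99% of their length, and Mast1 had between 2 and 11 counts per library.

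Of 8 other lysosomal genes on the list, all 8 were higher in the HD-het than in the control line, and the number lower was 0 by edgeR. Of all genes tested, 33.8% were higher and 31.4% lower in that comparison, and 29.6% higher and 28.9% lower in HD-homo against control, which are the shares beside which the number in each list that follows stands. All 8 also passed at an unadjusted p under 0.05 and by DESeq2. The list's median log2 difference was 0.68 in that comparison, where Dnase2a had 0.90. Of the same 8, 3 were higher and 1 was lower in the HD-homo than the control line, with a median of 0.10. The largest rise in the HD-homo line was that of Ctsl, at 0.85 (adjusted p = 4.4e-06, edgeR quasi-likelihood test, Benjamini-Hochberg). Ctsd fell by 0.34 on the log2 scale (adjusted p = 9.2e-04, edgeR quasi-likelihood test, Benjamini-Hochberg).

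RNase H2 is a trimer of a catalytic subunit, RNASEH2A, and the subunits RNASEH2B and RNASEH2C, which are needed for its activity in cells. The catalytic subunit's gene, Rnaseh2a (ENSMUSG00000052926.16, chr8:84956610-84969767 of GRCm38, minus strand), had normalized CPM of 57.9, 57.4 and 59.3 in control, 43.6, 38.4 and 42.9 in HD-het and 67.1, 61.8 and 68.0 in HD-homo libraries. The HD-het libraries were the lowest 3 of the 9 and the HD-homo libraries the highest 3. Rnaseh2a mRNA fell by 0.48 on the log2 scale in the HD-het line, a 1.40-fold decrease (SE 0.0660, adjusted p = 6.5e-05, edgeR quasi-likelihood test, Benjamini-Hochberg). It was 1.58-fold higher in the HD-homo than in the HD-het line, a log2 difference of 0.66 (SE 0.0659, adjusted p = 4.1e-06, edgeR quasi-likelihood test, Benjamini-Hochberg). Both of these passed in all 15 alternatives. Rnaseh2a shares 9.66% of its exonic bases with Gm49661 on the same strand, which the count table does not list, and 5.04% with Prdx2 on the opposite strand. The log2 difference of Prdx2 was -0.33 for HD-het against control (adjusted p = 0.00101), 0.54 for HD-homo against HD-het (adjusted p = 2e-05) and 0.21 for HD-homo against control (adjusted p = 0.0185, edgeR quasi-likelihood test, Benjamini-Hochberg), in the same directions as Rnaseh2a, and its part in the result was not tested.

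Against the control line, Rnaseh2a was 1.13-fold higher in the HD-homo line, a log2 difference of 0.17 (SE 0.0653, adjusted p = 0.0403, edgeR quasi-likelihood test, Benjamini-Hochberg). This small difference missed the threshold when any of 5 libraries was left out. Its adjusted p was then 0.108 without control replicate 1, 0.115 without control replicate 2 and 0.0678 without control replicate 3 (edgeR quasi-likelihood test, Benjamini-Hochberg; range over 15 alternatives 0.0176 to 0.115). The adjusted p was 0.1 without HD-homo replicate 1 and 0.115 without HD-homo replicate 3 (edgeR quasi-likelihood test, Benjamini-Hochberg). With no filter on low counts it was 0.0573 (edgeR quasi-likelihood test, Benjamini-Hochberg). The log2 difference lay between 0.14 and 0.22 throughout.

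For Rnaseh2c (ENSMUSG00000024925.11, chr19:5601873-5607019 of GRCm38, plus strand) the normalized CPM was 30.5, 29.3 and 37.1 in control, 23.2, 19.7 and 22.4 in HD-het and 21.5, 19.3 and 19.0 in HD-homo libraries. All 6 HD libraries were below all 3 control libraries, and the HD lines overlapped. Rnaseh2c was the 1 enzyme of the 8 that was lower in the HD-homo than the control line, by 1.62-fold, a log2 difference of -0.70 (SE 0.102, adjusted p = 1.4e-04, edgeR quasi-likelihood test, Benjamini-Hochberg). The HD-het level was 1.49-fold lower than that of the control line, a log2 difference of -0.57 (SE 0.102, adjusted p = 4.8e-04, edgeR quasi-likelihood test, Benjamini-Hochberg). Between the HD lines it did not pass, at -0.13 (SE 0.103, adjusted p = 0.284, edgeR quasi-likelihood test, Benjamini-Hochberg). Control replicate 3 had the highest level, and without any 1 library the difference of HD-homo from the control line stayed between -0.76 and -0.59. Exons of Kat5 on the opposite strand cover 24.84% of the exonic bases of Rnaseh2c. Kat5 differed from the control line by -0.12 in the HD-homo line (adjusted p = 0.106, edgeR quasi-likelihood test, Benjamini-Hochberg) and by -0.31 in the HD-het line (adjusted p = 9.8e-04).

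Rnaseh2b (ENSMUSG00000021932.13, chr14:62292589-62372992 of GRCm38, plus strand) went the other way. Its normalized CPM was 19.8, 19.5 and 20.8 in control, 24.5, 22.1 and 24.1 in HD-het and 22.8, 25.7 and 25.1 in HD-homo libraries. Every HD library was above every control library. Rnaseh2b mRNA was 1.22-fold higher in the HD-homo line, a log2 difference of 0.29 (SE 0.0746, adjusted p = 0.006, edgeR quasi-likelihood test, Benjamini-Hochberg), and this passed in all 15 alternatives. The HD-het level was 1.18-fold above that of the control line, a log2 difference of 0.23 (SE 0.0748, adjusted p = 0.0171, edgeR quasi-likelihood test, Benjamini-Hochberg). That difference missed the threshold when control replicate 1 (0.22, adjusted p = 0.0578), control replicate 2 (0.21, adjusted p = 0.0642) or HD-het replicate 1 (0.21, adjusted p = 0.0666) was left out (edgeR quasi-likelihood test, Benjamini-Hochberg; range over 15 alternatives 0.0113 to 0.0666). The HD lines did not differ past the threshold (log2 difference 0.06, SE 0.0739, adjusted p = 0.501, edgeR quasi-likelihood test, Benjamini-Hochberg).

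The mRNAs of the 3 subunits of RNase H2 were compared within each library as ratios of CPM per kb of exons. A ratio within a library does not depend on how libraries are scaled. The ratio of Rnaseh2c to Rnaseh2a was 1.08, 1.04 and 1.28 in control, 1.09, 1.05 and 1.07 in HD-het and 0.655, 0.639 and 0.571 in HD-homo libraries. All HD-homo libraries were below all others. The level of the ratio depends on the length used, and divided by the longest transcripts, a choice made after seeing the data, its means were 1.47 in control, 1.38 in HD-het and 0.804 in the HD-homo line. The differences between lines do not depend on that length. The mean ratio was 1.82-fold lower in the HD-homo than the control line, a log2 difference of -0.86 (two-sided exact permutation over libraries, p = 0.10, which is the smallest possible with 3 against 3). Between the HD-het and control lines the log2 difference of this ratio was -0.08, and the libraries overlapped (exact permutation p = 0.70).

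**Figure D2:**
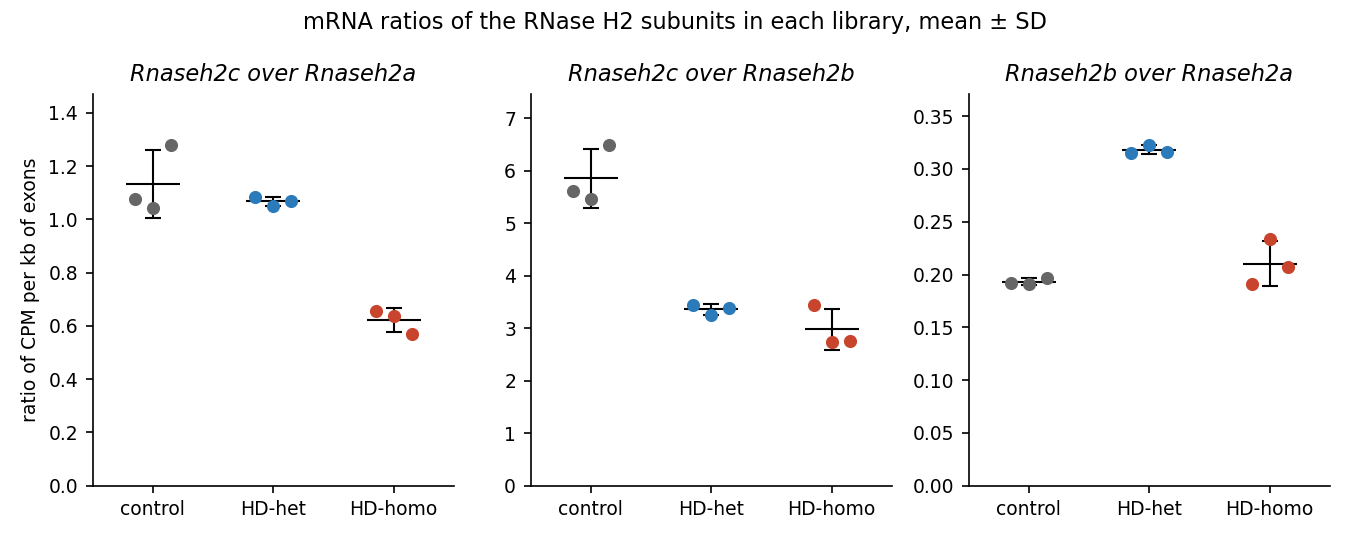
Ratios of CPM per kb of exons between the mRNAs of the RNase H2 subunits (y axis) in each library (points) of the 3 lines (x axis), with the mean (line) and SD of 3 libraries. Rnaseh2c over Rnaseh2a is low in the HD-homo libraries, Rnaseh2c over Rnaseh2b in both HD lines, and Rnaseh2b over Rnaseh2a is high in the HD-het libraries.

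The ratio of Rnaseh2b to Rnaseh2a was 0.192, 0.191 and 0.197 in control, 0.315, 0.323 and 0.316 in HD-het and 0.191, 0.234 and 0.207 in HD-homo libraries. It was high in the HD-het line alone, with a log2 difference of 0.72 from the control line (exact permutation p = 0.10). HD-homo and control libraries overlapped in it (log2 difference 0.12, exact permutation p = 0.40). The ratio of Rnaseh2c to Rnaseh2b had a mean of 5.86 ± 0.560 in control, 3.36 ± 0.0970 in HD-het and 2.98 ± 0.396 in the HD-homo line. Its log2 difference from the control line was -0.80 in the HD-het line and -0.98 in the HD-homo line, without overlap of libraries (exact permutation p = 0.10 for each). Each pair of lines was thus without overlap in at least 1 of the 3 ratios, and whether the proteins follow was not measured in these libraries.

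Of 4 other factors that resolve RNA:DNA hybrids, 2 were higher and 1 lower in the HD-homo than the control line, with a median log2 difference of 0.18. The gene that was lower was Dhx9, at -0.20 (adjusted p = 0.0195, edgeR quasi-likelihood test, Benjamini-Hochberg). Against control, the HD-het line had 1 higher and 2 lower, with a median of -0.23. The largest fall there was that of Aqr, at -0.38 (adjusted p = 3.1e-04, edgeR quasi-likelihood test, Benjamini-Hochberg).

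Genes of DNA replication and mitosis were examined beside RNase H2 and Samhd1, which act on replicating DNA and its precursors. Of 12 such genes, 10 were lower and 1 higher in the HD-het than in the control line, with a median log2 difference of -0.46, where Rnaseh2a had -0.48. The largest fall was that of Mcm3, at -0.85 (adjusted p = 3.4e-05, edgeR quasi-likelihood test, Benjamini-Hochberg), and the 1 gene that was higher was Mki67. In HD-homo against control, 4 of them were higher and 1 lower, with a median of -0.00. The summed level of the 12 was 4076 ± 34.7 CPM in control, 3181 ± 114 CPM in HD-het and 4352 ± 85.5 CPM in the HD-homo line. Top2a was the most abundant of them. The part of cell division in the Rnaseh2a difference was not tested.

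Samhd1 encodes a hydrolase that splits deoxynucleoside triphosphates and also helps degrade nascent DNA at stalled replication forks. The gene is ENSMUSG00000027639.16 at chr2:157097533-157135265 of GRCm38, minus strand. Its normalized CPM was 118, 115 and 122 in control, 114, 105 and 136 in HD-het and 138, 143 and 143 in HD-homo libraries. The HD-homo libraries were above all others, and HD-het replicate 3 stood above both other HD-het libraries, which were below every control library. Samhd1 mRNA was 1.19-fold higher in the HD-homo than the control line, a log2 difference of 0.25 (SE 0.0828, adjusted p = 0.0213, edgeR quasi-likelihood test, Benjamini-Hochberg). It missed the threshold without control replicate 1 (0.25, adjusted p = 0.0627) and without control replicate 2 (0.23, adjusted p = 0.072; edgeR quasi-likelihood test, Benjamini-Hochberg; range over 15 alternatives 0.00324 to 0.072). Against the HD-het line the HD-homo level was also 1.19-fold higher, a log2 difference of 0.25 (SE 0.0828, adjusted p = 0.0171, edgeR quasi-likelihood test, Benjamini-Hochberg). That difference missed the threshold when HD-het replicate 1 (0.22, adjusted p = 0.0652) or HD-het replicate 2 (0.17, adjusted p = 0.0747) was left out (edgeR quasi-likelihood test, Benjamini-Hochberg; range over 15 alternatives 3.2e-04 to 0.0747). The HD-het and control lines had means of 118.5 ± 16.1 and 118 ± 3.63 CPM and did not differ past the threshold (adjusted p = 0.992, edgeR quasi-likelihood test, Benjamini-Hochberg).

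Of 11 enzymes that make or salvage deoxynucleotides, the substrates of SAMHD1, 6 were higher and 1 lower in the HD-homo than the control line, with a median log2 difference of 0.31, beside 58.6% of all genes that passed in either direction. The largest rise was that of Dtymk, at 0.65 (adjusted p = 2.1e-06, edgeR quasi-likelihood test, Benjamini-Hochberg). The fall was that of Tk1, at -0.32 (adjusted p = 0.0232, edgeR quasi-likelihood test, Benjamini-Hochberg). HD-het against control gave 2 higher and 3 lower, with a median of -0.14. Dtymk, at 0.49 (adjusted p = 1.9e-05), and Tk1, at -0.71 (adjusted p = 1.5e-04), had the largest rise and the largest fall there (edgeR quasi-likelihood test, Benjamini-Hochberg).

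Adar encodes the enzyme that edits adenosine to inosine in double-stranded RNA, so that sensors of such RNA bind it less. It has a start used in most cells and a start, for a longer protein, that interferon induces. The count table does not separate transcripts by start. The gene is ENSMUSG00000027951.16 at chr3:89715022-89753446 of GRCm38, plus strand. Its normalized CPM was 80.6, 81.3 and 73.0 in control, 65.5, 65.4 and 60.1 in HD-het and 87.7, 75.6 and 93.2 in HD-homo libraries. The HD-het libraries were below all others, and the HD-homo libraries overlapped with those of the control line. Adar mRNA was 1.23-fold lower in the HD-het than in the control line, a log2 difference of -0.30 (SE 0.0815, adjusted p = 0.00728, edgeR quasi-likelihood test, Benjamini-Hochberg). It was 1.34-fold higher in the HD-homo than in the HD-het line, a log2 difference of 0.42 (SE 0.0813, adjusted p = 6.4e-04, edgeR quasi-likelihood test, Benjamini-Hochberg). HD-homo against control did not pass, at 0.13 (SE 0.0810, adjusted p = 0.205, edgeR quasi-likelihood test, Benjamini-Hochberg). Without HD-homo replicate 2, the lowest of its line, that difference was 0.21 and passed (adjusted p = 0.0254, edgeR quasi-likelihood test, Benjamini-Hochberg; range over 15 alternatives 0.0254 to 0.571). Leaving out HD-homo replicate 3 instead gave 0.06 (adjusted p = 0.571), and leaving out control replicate 3 gave 0.08 (adjusted p = 0.497, edgeR quasi-likelihood test, Benjamini-Hochberg). Exons of Chrnb2 on the opposite strand cover 16.81% of the exonic bases of Adar, and Chrnb2 had between 3 and 23 counts per library.

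**Figure D3:**
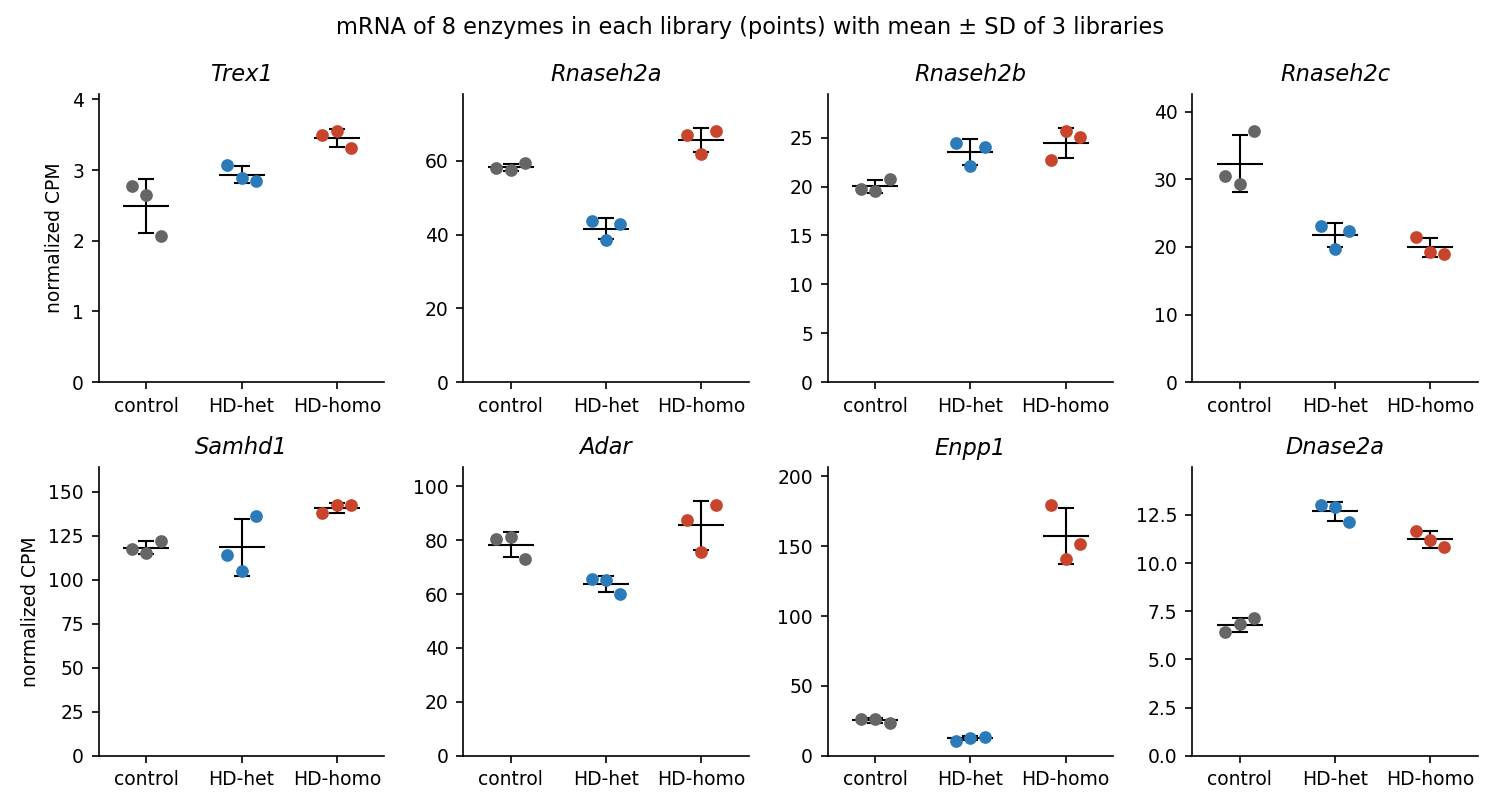
Normalized CPM (y axis, from 0) of the 8 enzymes in each library (points) of the control, HD-het and HD-homo lines (x axis), with the mean (line) and SD of 3 libraries. The Enpp1 panel spans 10.8 to 179.8 CPM, and Rnaseh2c is the panel in which both HD lines lie below the control line.

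Since interferon acts on a start of Adar, promoter letters bear on these enzymes beside interferon-stimulated genes. RefSeq promoter windows (GRCm38.p6, 250 bases before to 50 bases after a start) were listed for 7 of the 8 enzymes, 10 windows in all. Rnaseh2b had no entry. Both strands were searched for GAAANNGAA, the first 9 letters of the core of the interferon-stimulated response element, and for TTCNNNGAA, the core of the gamma-activated site. Of all 27025 genes with such a window, 9.8% have GAAANNGAA and 9.6% TTCNNNGAA in at least 1 window. Of the 8 enzymes, 1 has GAAANNGAA in a window, Adar, and 3 have TTCNNNGAA, namely Adar, Rnaseh2a and Samhd1. Of 11 interferon-stimulated genes with a window, 8 have GAAANNGAA and 1 has TTCNNNGAA. The letters shown are those of the Adar window that holds the matches, of Enpp1, as the enzyme with the largest differences between lines, and of Isg15, as an interferon-stimulated gene to set beside them. The Adar window before the start is chr3:89730468-89730717 on the plus strand, between annotated exons of Adar, and its matches after the start lie in chr3:89730738-89730767. The Enpp1 window is chr10:24712160-24712409 and the Isg15 window chr4:156200819-156201068, both on the minus strand and outside annotated genes. Each is written 5′ to 3′, and capitals mark a match to either motif on either strand, with overlapping matches run together.
Adar before the start: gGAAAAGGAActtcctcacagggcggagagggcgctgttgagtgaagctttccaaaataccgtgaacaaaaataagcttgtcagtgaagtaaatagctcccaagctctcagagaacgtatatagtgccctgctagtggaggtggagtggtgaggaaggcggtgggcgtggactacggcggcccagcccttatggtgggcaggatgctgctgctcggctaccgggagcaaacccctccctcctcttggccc
Adar after the start: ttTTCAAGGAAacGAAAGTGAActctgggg
Enpp1 before the start: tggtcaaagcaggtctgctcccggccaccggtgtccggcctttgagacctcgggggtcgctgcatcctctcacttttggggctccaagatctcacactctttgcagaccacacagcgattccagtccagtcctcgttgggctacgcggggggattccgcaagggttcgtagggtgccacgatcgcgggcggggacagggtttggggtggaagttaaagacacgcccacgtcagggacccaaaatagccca
Isg15 before the start: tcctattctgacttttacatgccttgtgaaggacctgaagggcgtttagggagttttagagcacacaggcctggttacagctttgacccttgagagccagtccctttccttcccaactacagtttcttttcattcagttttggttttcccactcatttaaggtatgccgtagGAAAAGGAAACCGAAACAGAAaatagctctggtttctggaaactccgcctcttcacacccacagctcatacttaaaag
In the Adar window, GAAANNGAA begins at -249 and at 34 from the start and TTCNNNGAA at 23, while the Isg15 window has 3 overlapping matches from -78. The Enpp1 window holds neither string. A match is a string of letters and not a bound site.

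Among 11 other genes for RNA editing or decay that limit self double-stranded RNA, 9 were tested. In the HD-homo line 5 were higher and 3 lower than in the control line, with a median log2 difference of 0.43. Rnaset2a and Rnaset2b, both among the genes that were higher, had nearly equal counts in every library (727 and 722 in HD-homo replicate 1), and whether the same reads were counted for both cannot be told from the table. With the 2 counted once, a choice made after seeing the data, 4 of 8 were higher and 3 lower, with a median of 0.23. Adarb2, a paralogue of Adar, was 0.82 on the log2 scale above the control line (adjusted p = 0.0216, edgeR quasi-likelihood test, Benjamini-Hochberg). The editing enzyme Adarb1 fell by 1.09 on the log2 scale (adjusted p = 1.4e-04, edgeR quasi-likelihood test, Benjamini-Hochberg). Of the 9, 3 were higher and 5 lower in the HD-het than in the control line, with a median of -0.19, and 2 of 8 were higher and 5 lower with that pair counted once. The extremes there were Adarb2, at 0.94 (adjusted p = 0.00983, edgeR quasi-likelihood test, Benjamini-Hochberg), and Supv3l1, at -0.77 (adjusted p = 4.1e-06).

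Enpp1 encodes an ectoenzyme that splits extracellular cGAMP, the messenger that cGAS makes on DNA, and that also yields pyrophosphate from ATP. The gene is ENSMUSG00000037370.13 at chr10:24637914-24712159 of GRCm38, minus strand. The reads counted on it numbered 833, 888 and 691 in control, 383, 419 and 458 in HD-het and 5864, 5938 and 5088 in HD-homo libraries. As normalized CPM these were 25.9, 26.4 and 23.4 in the control line, 10.8, 12.8 and 13.7 in the HD-het line and 179.8, 141 and 152 in the HD-homo line. The 3 lines did not overlap, with HD-het lowest and HD-homo highest. Enpp1 mRNA was 6.24-fold higher in the HD-homo than the control line, a log2 difference of 2.64 (SE 0.108, adjusted p = 4.1e-09, edgeR quasi-likelihood test, Benjamini-Hochberg). Enpp1 was 2.03-fold lower in the HD-het than in the control line, a log2 difference of -1.02 (SE 0.112, adjusted p = 1.2e-05, edgeR quasi-likelihood test, Benjamini-Hochberg). Between the HD lines the difference was 12.7-fold, a log2 difference of 3.66 (SE 0.115, adjusted p = 3.5e-10, edgeR quasi-likelihood test, Benjamini-Hochberg). The 2 HD lines thus lay on opposite sides of the control line, and the difference between them was itself tested.

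By size, 7.83% of all genes tested had a larger difference than Enpp1 between the HD-homo and control lines, 18.8% between the HD-het and control lines and 5.68% between the HD lines. In the order of increases it held place 595 of 13508 between the HD-homo and control lines. The log2 difference stayed between 2.53 and 2.72 for HD-homo and between -1.15 and -0.93 for HD-het against the control line in all 15 alternatives, and passed in each. Of its 50-base words, 0.232% occur in another gene, and no annotated exon of another gene overlaps its exons.

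Of 12 other genes that hydrolyse or move cGAMP, 11 were tested. Of these, 4 were higher and 4 lower in the HD-homo than the control line, with a median log2 difference of 0.20. Enpp3, a paralogue of Enpp1, had the largest rise, at 1.21 (adjusted p = 1.7e-04, edgeR quasi-likelihood test, Benjamini-Hochberg). The channel subunit gene Lrrc8b fell by 1.46 on the log2 scale (adjusted p = 6.4e-06, edgeR quasi-likelihood test, Benjamini-Hochberg). The HD-het line had 4 higher and 5 lower, with a median of -0.26. Among the 4, Slc46a3 had 3, 6 and 4 counts in control and 22, 10 and 20 in HD-het libraries. It had 6, 20 and 2 in HD-homo libraries and reached the filter through the HD-het libraries alone. Its rise in the HD-het line is thus not independent of the outcome. Smpdl3a, which encodes a further cGAMP hydrolase, rose by 3.51 on the log2 scale (adjusted p = 3.9e-08, edgeR quasi-likelihood test, Benjamini-Hochberg). Its counts were 25, 17 and 16 in control, 224, 229 and 255 in HD-het and 45, 58 and 41 in HD-homo libraries. Smpdl3a was therefore highest in the line in which Enpp1 was lowest. It was also higher in the HD-homo than the control line, at 1.12 (adjusted p = 6.6e-04, edgeR quasi-likelihood test, Benjamini-Hochberg), where Enpp1 was higher as well. Lrrc8d had the largest fall in the HD-het line, at -1.28 (adjusted p = 3e-05, edgeR quasi-likelihood test, Benjamini-Hochberg).

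Around the pyrophosphate side of ENPP1, 6 of 8 listed genes were tested. In HD-homo against control 2 were higher and 2 lower, with a median log2 difference of 0.03. Nt5e, whose product makes adenosine from the AMP that ENPP1 releases, rose by 3.95 on the log2 scale (adjusted p = 7.1e-09, edgeR quasi-likelihood test, Benjamini-Hochberg). The pyrophosphate transporter gene Ank fell by 0.53 on the log2 scale in the HD-homo line (adjusted p = 0.00796, edgeR quasi-likelihood test, Benjamini-Hochberg) and by 1.80 in the HD-het line (adjusted p = 1.3e-06). The others that passed in HD-homo against control, named after their values were seen, were Enpp2, a paralogue of Enpp1, at 3.76 (adjusted p = 5e-07, edgeR quasi-likelihood test, Benjamini-Hochberg), and Entpd1, at -2.84 (adjusted p = 4e-04). Entpd1 had 15, 11 and 14 counts in control and 1, 1 and 4 in HD-homo libraries. The size of its fall thus rests on few counts. Enpp2 was lower in the HD-het line, at -2.01 (adjusted p = 0.00243, edgeR quasi-likelihood test, Benjamini-Hochberg). Its counts were 25, 39 and 17 in control and 7, 10 and 4 in HD-het libraries. In HD-het against control 3 were higher and 2 lower, with a median of 0.97 and with Entpd1 as the largest rise, at 3.67 (adjusted p = 2.7e-07, edgeR quasi-likelihood test, Benjamini-Hochberg).

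Levels of different genes were compared as CPM per kb of exons. In the control line the order was Rnaseh2c at 18.8 ± 2.46, Rnaseh2a at 16.6 ± 0.278, Samhd1 at 12.9 ± 0.397, Adar at 9.65 ± 0.571, Rnaseh2b at 3.21 ± 0.108, Enpp1 at 2.46 ± 0.159, Trex1 at 2.17 ± 0.329 and Dnase2a at 1.26 ± 0.0674. Of neighbours in this order, Enpp1 and Trex1 overlapped between libraries. In the HD-het line it was Samhd1 at 13.0 ± 1.75, Rnaseh2c at 12.7 ± 1.05, Rnaseh2a at 11.9 ± 0.802, Adar at 7.84 ± 0.380, Rnaseh2b at 3.77 ± 0.207, Trex1 at 2.56 ± 0.105, Dnase2a at 2.36 ± 0.0912 and Enpp1 at 1.21 ± 0.145. The highest 3 of these overlapped, and the others did not overlap with their neighbours. In the HD-homo line it was Rnaseh2a at 18.7 ± 0.960, Samhd1 at 15.4 ± 0.302, Enpp1 at 15.3 ± 1.97, Rnaseh2c at 11.6 ± 0.783, Adar at 10.5 ± 1.11, Rnaseh2b at 3.92 ± 0.247, Trex1 at 3.01 ± 0.110 and Dnase2a at 2.08 ± 0.0797. There Samhd1 overlapped with Enpp1, and Rnaseh2c with Adar. Enpp1 thus moved from place 6 in the control line to place 8 in HD-het and place 3 in the HD-homo line. Divided by the longest transcript instead, Samhd1 came first in every line, and Enpp1 held places 6, 8 and 2.

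**Figure D4:**
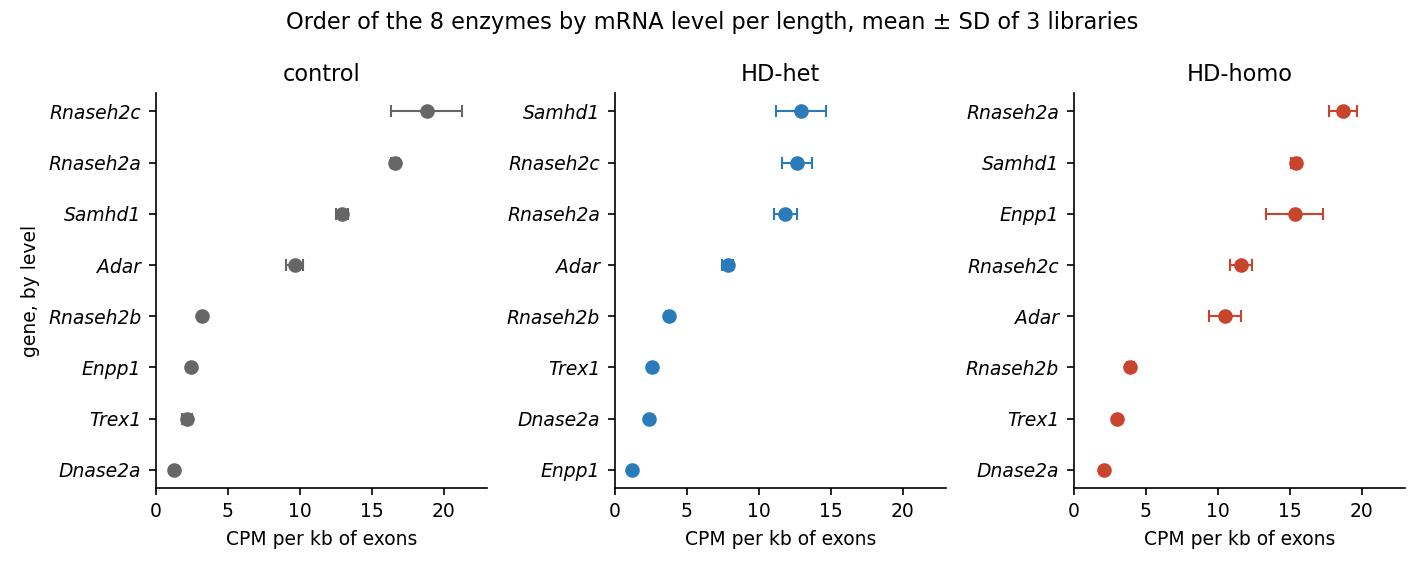
Mean level per length of the 8 enzymes (x axis, CPM per kb of exons; bars, SD of 3 libraries), in order of level within each line (panels). Enpp1 is at place 6 in control, 8 in HD-het and 3 in the HD-homo line, and the other enzymes keep to an upper group of 4 and a lower group of 3.

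The summed level of the 8 enzymes was 341, 339 and 345 CPM in control, 297, 279 and 314 CPM in HD-het and 532, 480.2 and 514 CPM in HD-homo libraries. Enpp1 made up 7.39 ± 0.543% of this sum in the control line, 4.19 ± 0.495% in the HD-het line and 30.9 ± 2.55% in the HD-homo line. The high sum in the HD-homo line therefore lay mainly in Enpp1. Samhd1 had the largest share in the control and HD-het lines, at 34.6 ± 0.735% and 39.8 ± 3.13%, and in the HD-homo line it had 27.8 ± 1.88%.

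For each enzyme, the genes with the most similar levels over the 9 libraries were sought among 12015 tested genes with a mean of at least 1 CPM, by Pearson's r of log2(CPM + 1). The 9 libraries form 3 lines, so r mostly compares 3 levels and is a description. Enpp1 was most like Nfatc1 and Tuba4a (r = 1.00 for each), and 990 genes had an r over 0.9 with it. Nfatc1 was at 53.3 CPM in control, 29.0 CPM in HD-het and 287 CPM in the HD-homo line. Trex1 was most like Rtel1 (r = 0.98) and Nfkbiz (0.97), Dnase2a like Ank2 and Pir (0.99 for each), and Samhd1 like 9430038I01Rik and Dut (0.97 for each). Rnaseh2a was most like Dhx38 and Kars (0.99 for each), Rnaseh2b like Smad9 (0.98) and Aagab (0.97), and Rnaseh2c like Cisd1 (0.99) and Atp5mpl (0.98). Adar was most like Abcc1 (r = 0.98) and Atp13a1 (0.97). Dut is on the list of deoxynucleotide enzymes beside Samhd1, and Abcc1 is on the list of cGAMP transporters. An r over 0.9 was reached by 40 genes with Samhd1 and by 1379 with Rnaseh2a, and these numbers depend on the spread within a line as well as on its level.

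The remaining list beside Trex1 and Dnase2a holds 9 other enzymes and factors that remove or shield self DNA, of which 4 were tested. Between the HD-homo and control lines 0 of the 4 passed by edgeR, and the count was also 0 at an unadjusted p under 0.05 and by DESeq2. Their median log2 difference was 0.01. Between the HD-het and control lines 2 were higher and 1 lower, with a median of 0.51. Pld3, which encodes a lysosomal exonuclease, rose by 0.86 on the log2 scale (adjusted p = 1.8e-06, edgeR quasi-likelihood test, Benjamini-Hochberg), and Banf1, whose product shields DNA from cGAS, fell by 0.73 (adjusted p = 6.4e-06). The other gene that was higher, Dnase1l1, named after its value was seen, rose by 0.85 (adjusted p = 9.5e-04, edgeR quasi-likelihood test, Benjamini-Hochberg). Dnase2b and Pld4 were among the 5 not tested.

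**Figure D5:**
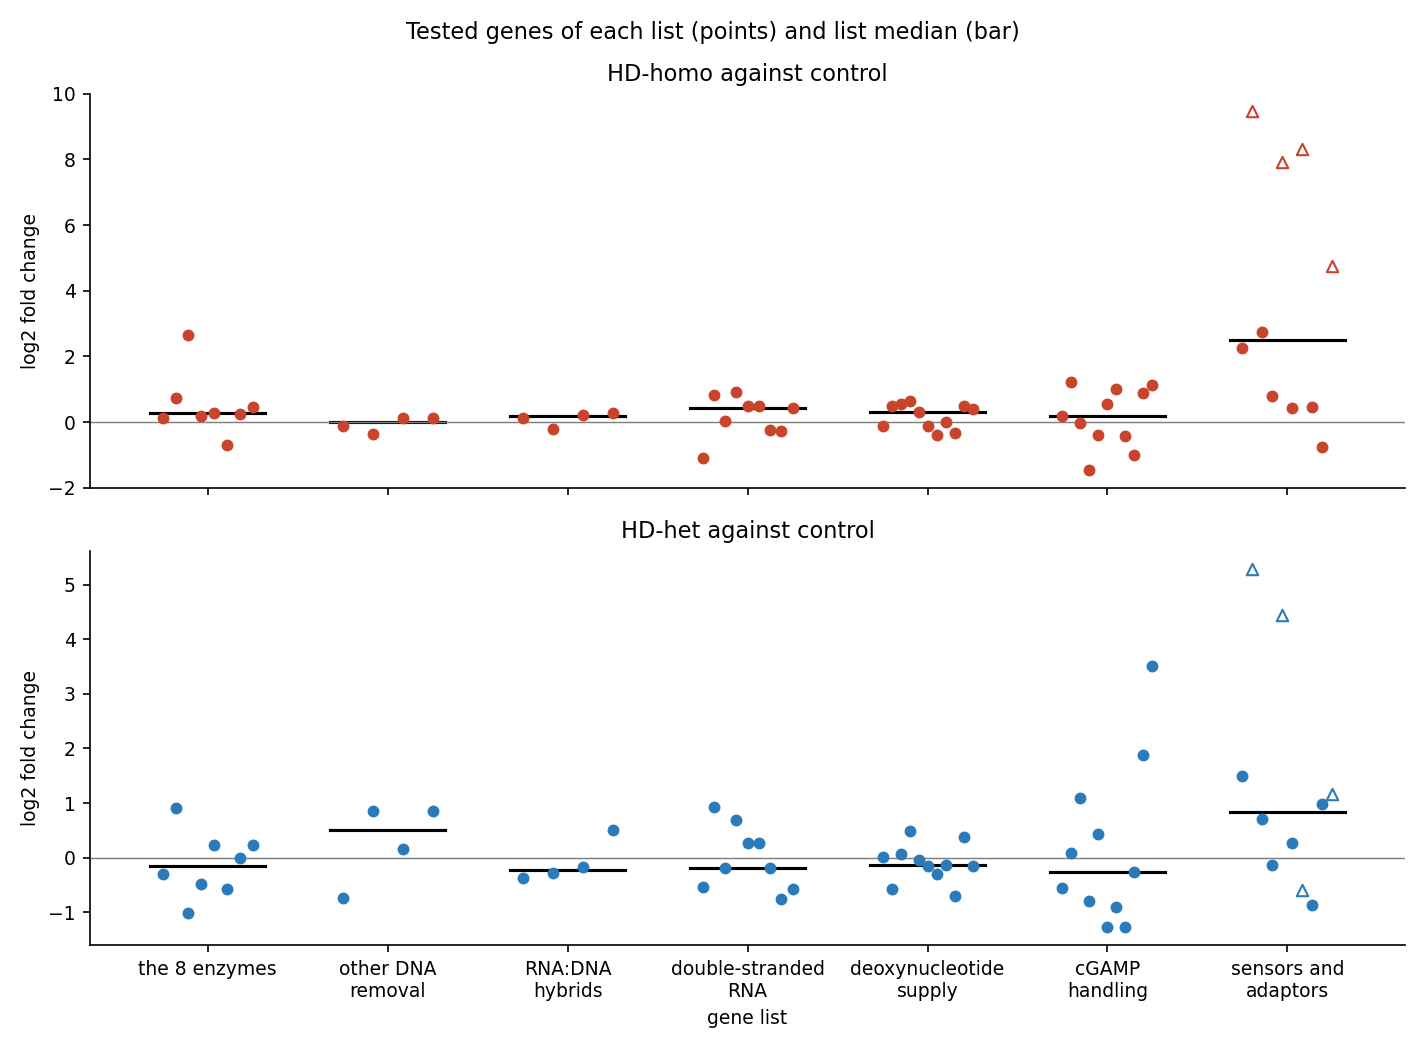
Fitted log2 fold change (y axis) of each tested gene (points) in the 8 enzymes and in 6 lists of genes that act around them (x axis), with the list median (bar), for HD-homo (upper panel) and HD-het (lower panel) against the control line. Open triangles mark genes with at most 3 counts in each control library, whose fitted values depend on the prior count, and the sensors include 4 of them.

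Of 12 sensors and adaptors of self nucleic acids, 10 were tested. Tlr9 had no counts in any library, and Tlr7, with 8, 5 and 2 counts in control, 8, 7 and 6 in HD-het and 1, 2 and 2 in HD-homo libraries, did not reach the filter. Between the HD-homo and control lines 9 were higher and 1 lower, with a median log2 difference of 2.51, which was the same with genes near 0 set to the floor of 3 counts. Zbp1 and Oas1a, with at most 4 counts in each control and HD-het library, reached the filter through the HD-homo libraries alone, so the numbers among tested sensors are not independent of the outcome. Without the filter, a choice made after seeing the data, 11 sensors had a value, of which 9 were higher and 2 lower, with a median of 2.26, and Tlr7 was the second that was lower, at -1.69 (adjusted p = 0.0464, edgeR quasi-likelihood test, Benjamini-Hochberg). The gene that was lower among those tested was Tlr3, at -0.75 (adjusted p = 0.00146, edgeR quasi-likelihood test, Benjamini-Hochberg). Between the HD-het and control lines 6 were higher and 1 lower, with a median of 0.84, or 0.49 with the floor. That fall was of Sting1, listed as Tmem173, at -0.88 (adjusted p = 3.3e-06, edgeR quasi-likelihood test, Benjamini-Hochberg). Ifih1, which encodes the MDA5 sensor of double-stranded RNA that ADAR restrains, had 2, 0 and 2 counts in control, 28, 37 and 35 in HD-het and 304, 469 and 434 in HD-homo libraries. Its libraries were in the order control, HD-het, HD-homo without overlap, while Adar was lowest in the HD-het line and did not pass between the HD-homo and control lines.

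Cgas, whose product makes the cGAMP that ENPP1 splits, had 1, 2 and 3 counts in the control libraries, so its ratio to Enpp1 is given for the HD lines. Per kb of exons, the ratio of Cgas to Enpp1 was 0.617, 0.516 and 0.456 in HD-het and 0.615, 0.832 and 0.807 in HD-homo libraries. The libraries of the lines overlapped in this ratio. Both mRNAs were higher in the HD-homo than in the HD-het line, and the mean ratio differed by 1.42-fold.

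Of 15 interferon-stimulated genes, all tested, 14 were higher in the HD-homo than the control line and 0 were lower by edgeR, and the number that passed was also 14 at an unadjusted p under 0.05 and by DESeq2. Some of these genes, Ifit1 among them, had at most 13 counts in each control and HD-het library and reached the filter through the HD-homo libraries alone. Their tests against the HD-homo line are not independent of the outcome, while the filter left out 0 of the 15. The median log2 difference of all 15 was 5.93, or 4.93 with genes near 0 set to the floor, and that of the 8 enzymes was 0.27. In the HD-het line 9 were higher than in the control line and 0 lower by edgeR, with 9 that passed at an unadjusted p under 0.05 and 10 by DESeq2. The median there was 1.43, and that of the 8 enzymes was -0.15. The summed level of the 15 genes was 36.6, 36.5 and 36.7 CPM in control, 49.4, 51.7 and 50.05 CPM in HD-het and 186, 162 and 273 CPM in HD-homo libraries. The named extreme in HD-homo, Ifit1, had 4, 3 and 0 counts in control against 513, 956 and 761 in HD-homo libraries. In HD-het it was Ifi44, with 2, 2 and 1 counts in control against 57, 66 and 59 in HD-het libraries. In the line with the highest interferon-stimulated mRNAs, then, Enpp1 was high, Rnaseh2c was low, 5 further enzymes were higher than in the control line by at most 0.73 on the log2 scale, and Adar, at 0.13, did not pass.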

How the data were processed

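Total RNA of the 9 samples was made into poly(A)-selected directional libraries, and the deposited file gives counts per gene and library. The submitters' notes name cutadapt, Bowtie 1.1.2, RSEM 1.3.0 and DESeq2, with the builds GRCm38.p5 and mm10, but not the role of each or the strand setting. The deposited counts are whole numbers and may be rounded RSEM estimates. All 36410 listed genes were read, 2 names occur a second time, and no column was left out. Cgas is also listed as Mb21d1, and the Cgas entry was used.

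The analysis used edgeR 4.0.16 under R 4.3.3. Low counts were filtered with filterByExpr (minimum count 10), TMM scaled the libraries, and 1 quasi-likelihood model of all 9 libraries gave each line its mean (prior count 0.125 for fold changes). The 3 pairs of lines were tested two-sided with Benjamini-Hochberg adjustment over 13508 genes, at an adjusted p under 0.05. Folds are ratios of mean normalized CPM. Ratios of subunits were compared by exact permutation over libraries. The floor was 3 counts per library. The scripts were tested on simulated data.

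The alternatives were DESeq2's size factors, library totals alone, the Wald test of DESeq2 1.42.0, no filter, at least 10 counts in every library, only the compared lines, a prior count of 2, the replicate number as a block, leaving out each library of the compared lines, and for levels per length the longest transcript. Leaving out replicate 3 of the control and HD-het lines together, counting Rnaset2a and Rnaset2b once, counting sensors without the filter and dividing the subunit ratios by the longest transcripts were chosen after seeing the data. Positions, exon lengths and shared words come from GENCODE on GRCm38, promoters from RefSeq.

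The 8 enzymes and the gene lists were chosen with earlier results of these data known. By rule the text names from each list at most the largest rise and the largest fall past the threshold in each HD line against the control line (minimum 1 CPM in the line with more), and for markers the most abundant gene (in each line where they differ) and the defining genes at 0. Cgas and Ifih1 are always named, and for likeness the 2 genes with the highest r. Named outside this rule, after their values were seen, were Isg15, genes that share exons with an enzyme, Dnase1l1, Dnase2b, Pld4, Rnaset2a, Rnaset2b, Slc46a3, Enpp2, Tlr7, Zbp1, Oas1a, P2ry12, Smpdl3a and Entpd1 for the HD-homo line and Acta2 for the HD-het line. Each enzyme had 61 or more counts in every library.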

Additional observations from a re-analysis of the deposited data

How the results depend on the processing

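In 15 alternatives for each of 24 differences (8 enzymes in 3 comparisons), 342 values kept their side of the threshold, 17 missed a threshold they had passed and 1 passed it newly. All kept their direction except Samhd1 between the HD-het and control lines, which passed nowhere and lay between -0.11 and 0.08. The 17 belong to 5 differences of at most 0.47 on the log2 scale. Without 1 library, 5 (without control replicate 1, 2 or 3) to 8 (without HD-homo replicate 2) enzymes passed between the HD-homo and control lines, 5 to 6 between the HD-het and control lines and 3 to 4 between the HD lines. The range over all alternatives was the same, and genes passed in numbers of 6750 to 8372, 7762 to 9303 and 8354 to 10033. Of 49 genes tested in the 6 lists around the enzymes, 36, 35 and 37 passed, where 58.6, 65.1 and 71.6% of all genes tested did. With at least 10 counts in every library, 30, 31 and 32 of 42 tested passed, beside 57.5, 66.1 and 71.2% of all 11739 genes tested there.

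Without replicate 3 of the control and HD-het lines, chosen after seeing the data, 3 differences missed the threshold, those of Trex1 (0.35, adjusted p = 0.0605) and Rnaseh2a (0.18, adjusted p = 0.0715) between the HD-homo and control lines and of Rnaseh2b between the HD-het and control lines (0.24, adjusted p = 0.0528; edgeR quasi-likelihood test; ranges over the alternatives 0.00928 to 0.0605, 0.0176 to 0.115 and 0.0113 to 0.0666). Fewer libraries were fitted there.

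With the replicate number as a block, 7, 6 and 4 enzymes and 8372, 9160 and 9938 genes passed. Deviations of same-numbered libraries from their line's mean had a mean r across genes of 0.0451, 0.216 and 0.167 in the 3 pairs of lines. For some numbers r was below 0.1, and the main fit was made without the block. Yet a library was most like its own number in 6 of 6, 5 of 6 and 6 of 6 cases. The labels do not say whether the number links libraries of different lines, and what same-numbered libraries share was not tested.

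Divided by the longest transcript, which is shorter than all exons by construction, control levels per kb were 19.5 for Rnaseh2a, 4.02 for Rnaseh2b, 28.7 for Rnaseh2c, 30.2 for Samhd1, 13.3 for Adar, 3.72 for Enpp1 and 1.67 for Dnase2a.

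Each genotype is a single line, and protein and cGAMP were not measured. Variance between libraries of a line was 2.23 to 40.3 times that of counting alone. Trex1, with 61 to 150 counts, has the least depth of the 8, and its difference of 0.23 between the HD-het and control lines (SE 0.143) did not pass.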

Other observations

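Among 8 markers of microglia and other myeloid cells, Aif1 and Tyrobp had no counts in any library and Cd68 was the most abundant. Their summed level was 3.08, 3.03 and 3.18 CPM in the control libraries, 3.84, 4.05 and 6.50 CPM in the HD-het libraries and 4.72, 4.40 and 4.92 CPM in the HD-homo libraries. The myeloid markers that were tested did not all move in the same direction. P2ry12 was lower in the HD-homo line, at -3.16 (adjusted p = 0.00119, edgeR quasi-likelihood test, Benjamini-Hochberg), where Csf1r was higher, at 1.89 (adjusted p = 3.8e-05). In the HD-het line P2ry12 was lower, at -1.65 (adjusted p = 0.0144, edgeR quasi-likelihood test, Benjamini-Hochberg), and Cd68 higher, at 0.93 (adjusted p = 0.00297). P2ry12 had 18, 14 and 10 counts in control, 4, 2 and 8 in HD-het and 1, 4 and 0 in HD-homo libraries. It reached the filter through the control libraries alone, so its falls are not independent of the outcome. The opposite moves among the tested markers rest on P2ry12. Of the glial markers, Mog had no counts in any library and Gfap at most 6, while Mbp had 4, 4 and 3 counts in control, 3, 4 and 5 in HD-het and 26, 48 and 59 in HD-homo libraries. Mbp was 3.37 on the log2 scale above the control line in the HD-homo line (adjusted p = 2.3e-05, edgeR quasi-likelihood test, Benjamini-Hochberg). It reached the filter through the HD-homo libraries alone, so this test is not independent of the outcome. The part of Mbp in the results on the enzymes was not tested. The 4 endothelial markers, with Kdr the most abundant, summed to 0.888 ± 0.169 CPM in control, 1.24 ± 0.366 CPM in HD-het and 1.32 ± 0.274 CPM in the HD-homo line. Of the 2 that were tested, 1 was higher and 1 lower in the HD-het than in the control line, which the sum hides. Between the HD-homo and control lines 0 passed by edgeR. The 6 markers of fibroblasts and mural cells summed to 10780 ± 414 CPM in control, 18320 ± 815 CPM in HD-het and 10780 ± 500.4 CPM in the HD-homo line. Vim was the most abundant in the control and HD-homo lines and Col1a1 in the HD-het line. The sums hide opposite moves, as Acta2 had a log2 difference of -4.63 (adjusted p = 1.5e-08, edgeR quasi-likelihood test, Benjamini-Hochberg) and Col1a2 of 4.35 (adjusted p = 1.8e-11) between the HD-homo and control lines. Between the HD-het and control lines these were 1.22 (adjusted p = 2.1e-04, edgeR quasi-likelihood test, Benjamini-Hochberg) and -4.54 (adjusted p = 1.3e-10).

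Of 7 reference genes, 1 was higher and 1 lower in the HD-homo than the control line, namely Hprt at 0.29 (adjusted p = 4.9e-04, edgeR quasi-likelihood test) and Tbp at -0.37 (adjusted p = 0.0012). In the HD-het line 1 was higher and 4 were lower than in the control line, with Hprt at 0.13 (adjusted p = 0.0413, edgeR quasi-likelihood test) and Tbp at -0.65 (adjusted p = 1.5e-05). Several enzymes thus differed between lines by less than some reference genes did.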
